A study of Mus musculus with 2 samples.

Results

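Chemokines and the related cytokine osteopontin, which activated CD8+ T cells are known to secrete, were examined in 2 two-colour microarrays of mouse T cells. The list held 7 genes: Ccl1, Ccl3, Ccl4, Ccl5, Ccl9, Xcl1 and Spp1, the gene of osteopontin. A gene entered when the platform's annotation gave a probe that symbol and no other and the probe had a value on both arrays. In this way 6 of the 7 genes were measured, each by 1 probe, out of 14150 genes measured in the series. No probe was annotated to Spp1 alone, so it has no value here.

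Each array compared effector CD8+ T cells of a pmel transgenic mouse at successive stages of culture, once stimulated and then stimulated again. The pmel T cell receptor recognises gp100, an antigen of melanocytes and melanoma. Both stages thus carried the same transgene, and no untreated cells, other genotype or age are named in the labels. Total RNA after 1 stimulation was in channel 1 and total RNA after 2 stimulations in channel 2. The second array is labelled a repeat, and whether its RNA came from a separate culture is not told by the labels. Errors and p-values therefore cover only the spread between these arrays, which may be technical.

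The values are log ratios of the channels, 1 per probe and array, taken here as log2. The numerator is not stated. A ratio of 1 stimulation over 2 is likely, because titles and channel numbers put the first stage first, and no other label supports it. Positive values are then RNA more abundant after 1 stimulation and negative values RNA more abundant after 2, and with the other numerator the sides swap. Spot intensities were not used here, which leaves the signal behind each ratio unknown, and having only 2 arrays limits precision. In RNA of a whole culture, fewer cells of a type and less RNA per cell cannot be told apart.

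Chemokines are small secreted proteins that guide the movement of leukocytes through receptors coupled to G proteins. T cells make the CC chemokines CCL3, CCL4 and CCL5 as effector products, with CCL5 typical of antigen-experienced CD8+ cells, and they release XCL1 to attract the dendritic cells that bear XCR1. Transcription of Ccl3, Ccl4, Ccl1 and Xcl1 follows signals from the T cell receptor within a short time, and many of the same genes are also made by macrophages.

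Ccl3 and Ccl4 are next to each other in the order of Ccl genes on chromosome 11, where Ccl1, Ccl5 and Ccl9 also lie, and Xcl1 is on chromosome 1. Upstream sequence was available for 4 of the 6 measured genes, as 250 bases before the RefSeq start site of mouse build GRCm38.p6. It is shown for each of these genes, whatever their values. All are on the minus strand and are written in the direction of the gene, at chr11:83649379-83649628 for Ccl3, chr1:164935523-164935772 for Xcl1, chr11:82179813-82180062 for Ccl1 and chr11:83578637-83578886 for Ccl9. Capitals mark matches on either strand to GGAAA (the core of NFAT sites), GGGANTT (the start of some NF-kappa B sites), TGANTCA (AP-1), GGTGTGA (T-box factors such as EOMES) or TATAAA.
Ccl3: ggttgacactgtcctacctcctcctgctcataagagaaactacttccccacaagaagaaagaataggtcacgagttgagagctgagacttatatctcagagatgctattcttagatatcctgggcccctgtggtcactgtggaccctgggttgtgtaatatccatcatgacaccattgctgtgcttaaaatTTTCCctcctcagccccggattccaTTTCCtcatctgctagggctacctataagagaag
Xcl1: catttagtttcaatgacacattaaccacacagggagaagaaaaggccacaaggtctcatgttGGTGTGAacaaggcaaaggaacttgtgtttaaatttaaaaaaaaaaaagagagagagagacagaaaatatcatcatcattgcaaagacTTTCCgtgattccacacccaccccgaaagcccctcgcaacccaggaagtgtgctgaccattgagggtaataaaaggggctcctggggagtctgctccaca
Ccl1: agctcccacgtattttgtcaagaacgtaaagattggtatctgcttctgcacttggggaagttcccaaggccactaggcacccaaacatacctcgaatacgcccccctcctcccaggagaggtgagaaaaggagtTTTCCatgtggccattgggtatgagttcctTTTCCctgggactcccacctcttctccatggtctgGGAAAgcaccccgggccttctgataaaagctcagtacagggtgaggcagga
Ccl9: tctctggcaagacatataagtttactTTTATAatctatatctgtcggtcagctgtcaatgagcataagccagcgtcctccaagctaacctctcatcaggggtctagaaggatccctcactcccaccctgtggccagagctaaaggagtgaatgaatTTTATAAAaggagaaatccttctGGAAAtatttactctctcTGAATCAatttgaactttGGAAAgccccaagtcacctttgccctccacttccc
GGAAA or its reverse complement was found 2 times in Ccl3, 1 time in Xcl1, 3 times in Ccl1 and 2 times in Ccl9. It occurred in 55.6% of 32851 promoter windows of the same length. TGANTCA was found in Ccl9 alone of the 4 genes and in 6.75% of all windows, GGTGTGA in Xcl1 alone and in 3.33%, and TATAAA in Ccl9 alone, where 2 of its 3 matches overlap, and in 12.4%. GGGANTT was in none of the 4 windows and in 14.4% of all windows. Other forms of NF-kappa B site were not searched for. These matches describe letters and were not tested as binding sites.

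The arrays disagreed on the chemokines. No chemokine probe was at least 2-fold from a ratio of 1 on both arrays, where 0.854% of all probes were. Only Ccl1 had the same sign on both, against 62.3% of 21427 probes. On array 1 alone 1 of the 6 was at least 2-fold (2.11% of all probes) and on array 2 alone 3 were (4.68%), and they were different genes. In limma's moderated test, adjusted by the Benjamini-Hochberg method over all probes, 0 of the 6 passed 0.05, with adjusted p between 0.431 and 0.707. That test called 0% of all probes, the smallest adjusted p being 0.162, although 3186 probes had an unadjusted p under 0.05, none of them a chemokine probe. A robust prior in limma likewise gave 0 calls.

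**Figure D1:**
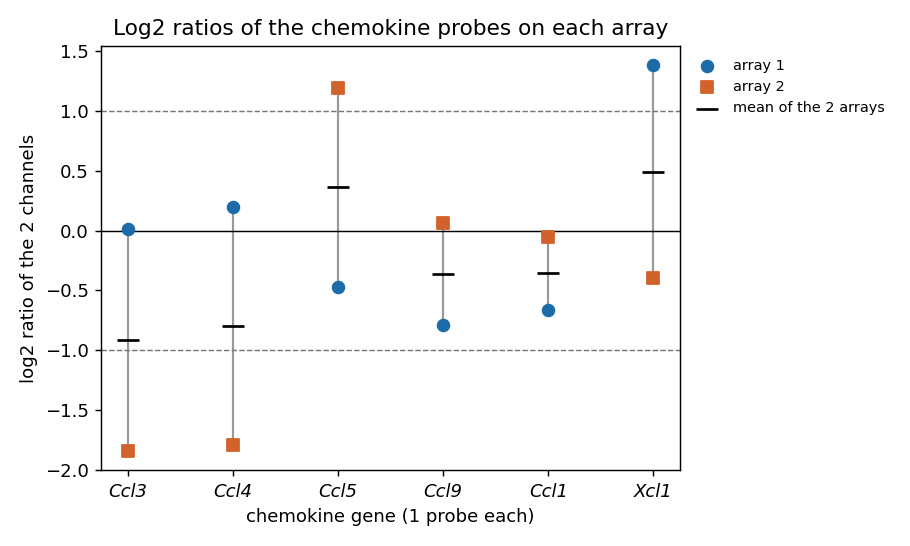
Log2 ratio of each chemokine probe (vertical axis) on array 1 (circles) and array 2 (squares), joined by a line, with a bar at the mean of the 2 arrays. Dashed lines mark a 2-fold ratio; the circles of Ccl3 and Ccl4 lie at 0.01 and 0.20 and their squares at -1.84 and -1.79, while Ccl5 and Xcl1 cross 0 in opposite directions.

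Among the CC chemokines, Ccl3 encodes MIP-1 alpha, which attracts monocytes, dendritic cells and T cells. Its log2 ratio was 0.01 on array 1 and -1.84 on array 2. Array 1 thus read close to equal for the stages, and array 2 gave a 3.58-fold difference on the negative side. The mean of -0.915 ± 1.31 (SD, n = 2) was the farthest from 0 of the 6 genes, with a 95% interval from limma of -2.15 to 0.32 (limma adjusted p of 0.431).

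Ccl4 encodes MIP-1 beta, a close relative of CCL3. It read 0.20 on array 1 and -1.79 on array 2, a 3.46-fold difference on the negative side there. The mean was -0.795 ± 1.41 (SD, n = 2), with a 95% interval of -2.11 to 0.52 and a limma adjusted p of 0.496. Ccl3 and Ccl4 therefore gave nearly the same pair of values, both near 0 on array 1 and both well below 0 on array 2. In the plane of the arrays, the singly named probes within a distance of 0.2 of Ccl3 were Ccl4 and Atf3, and the only one within 0.2 of Ccl4 was Ccl3. This distance was chosen after the values were seen. As close relatives the probes of Ccl3 and Ccl4 may share target sequence, which was not tested.

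Ccl5 encodes RANTES, which effector and memory CD8+ T cells store and release. It ran the other way: -0.47 on array 1 and 1.19 on array 2, where the ratio was 2.28-fold on the positive side. The mean was 0.360 ± 1.17 (SD, n = 2), with a 95% interval of -0.76 to 1.48 and a limma adjusted p of 0.707. The sign of Ccl5 thus turned between arrays, and on array 2 it lay opposite to Ccl3 and Ccl4.

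Ccl9, a mouse CC chemokine that acts through CCR1 and is best known from myeloid cells and osteoclasts, read -0.79 on array 1 and 0.06 on array 2. Its mean was -0.365 ± 0.60 (SD, n = 2), with a limma adjusted p of 0.524. Ccl1, the ligand of CCR8 first described as a product of activated T cells, read -0.66 and -0.05. Its mean was -0.355 ± 0.43 (SD, n = 2), with a limma adjusted p of 0.465. Both genes were on the negative side on array 1 and close to 0 on array 2, the reverse of Ccl3 and Ccl4. Of all probes 21.4% lay at least as far from 0 in the mean as Ccl9 and 22.4% as far as Ccl1.

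Xcl1 encodes lymphotactin, the C-type chemokine that attracts cross-presenting dendritic cells. It read 1.38 on array 1 and -0.40 on array 2, the only chemokine at least 2-fold on array 1, with a ratio of 2.60-fold on the positive side. The mean was 0.490 ± 1.26 (SD, n = 2), with a 95% interval of -0.70 to 1.68 and a limma adjusted p of 0.638. The sign turned between arrays, as it did for Ccl3, Ccl4, Ccl5 and Ccl9, and like Ccl3 and Ccl4 it was higher on array 1.

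In order of their means the genes ran Ccl3, Ccl4, Ccl9, Ccl1, Ccl5 and Xcl1, from -0.915 to 0.490. No neighbours in this order differed by more than the larger of their SDs between arrays, and all 6 intervals include 0. The median of the 6 means was -0.360, against -0.02 over all genes measured, and the medians on the single arrays were -0.230 and -0.225. These medians are alike although the genes behind them are not: Ccl9, Ccl1 and Ccl5 were negative on array 1, and Ccl3, Ccl4, Xcl1 and Ccl1 on array 2.

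**Figure D2:**
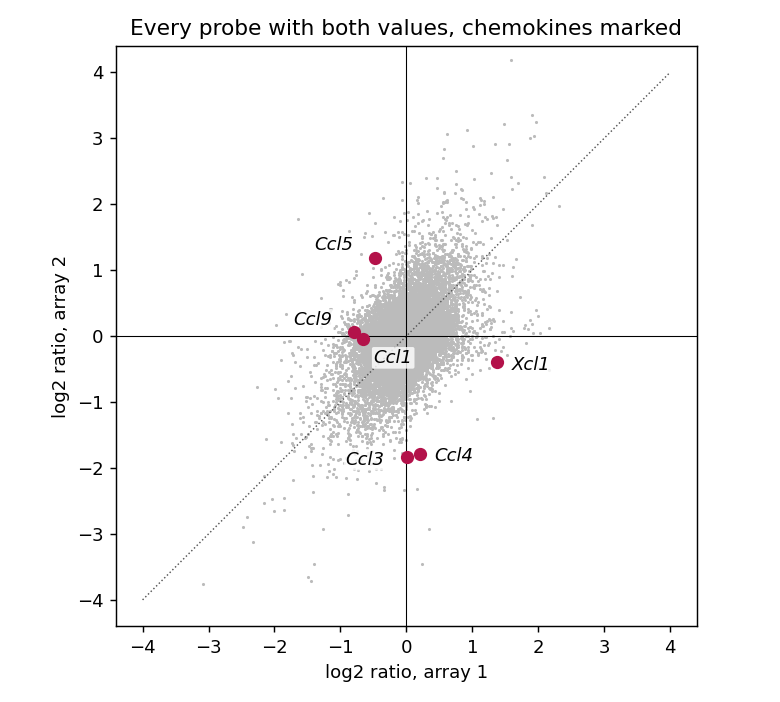
Log2 ratio on array 1 (horizontal axis) and array 2 (vertical axis) for 21427 probes (grey) with the 6 chemokine probes marked. The dotted line is equality; Ccl3, Ccl4, Ccl5 and Xcl1 lie at the edge of the cloud, away from that line.

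Most chemokine probes lay far apart between the arrays. Over all probes the arrays correlated with Pearson's r = 0.494 (Spearman's rho = 0.420; a description across probes, which are not independent). The difference of array 1 minus array 2 had an SD of 0.422 and a median size of 0.240. For the 6 chemokines the median size was 1.72. Differences of at least 1.5 in size were found for 4 of the 6, Ccl4 (1.99), Ccl3 (1.85), Xcl1 (1.78) and Ccl5 (-1.66), against 0.616% of all probes, a threshold chosen after the values were seen. In the same order, 35, 52, 59 and 91 of the 21427 probes, themselves included, differed at least as much. Ccl9 (-0.85) and Ccl1 (-0.61) were less extreme, with 5.04% and 12.5% of probes at least as far apart.

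The difference had no common direction among the chemokines. Ccl3, Ccl4 and Xcl1 were higher on array 1, and Ccl5, Ccl9 and Ccl1 on array 2. Centring each array on its median changed each difference by 0.01. With quantile normalization, which gives both arrays the same distribution, the differences were 1.69 for Ccl3, 1.83 for Ccl4, 2.08 for Xcl1 and -1.54 for Ccl5, and 78, 54, 25 and 112 probes differed at least as much. Whether the repeat differed in culture, time of harvest, labelling or spot quality was not tested.

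**Figure D3:**
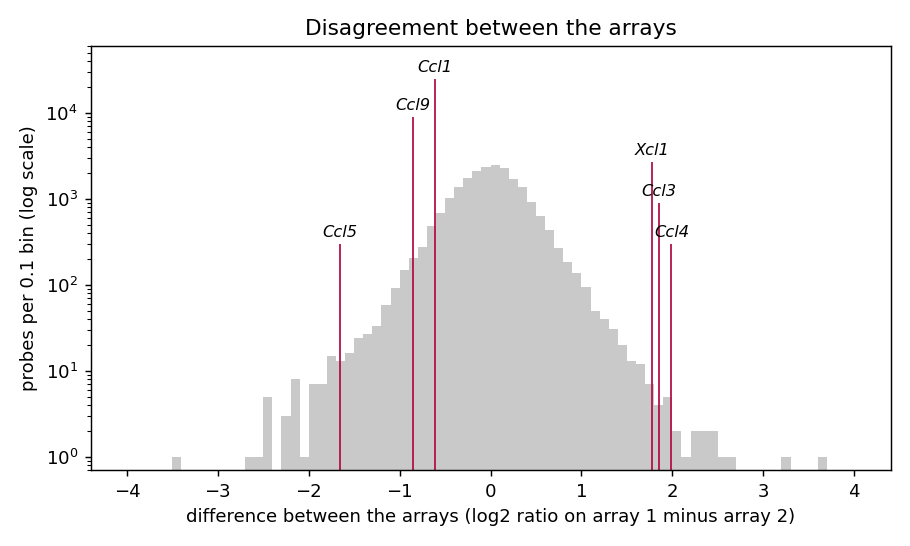
Number of probes (vertical axis, log scale) by the difference in log2 ratio between array 1 and array 2 (horizontal axis, bins of 0.1), with the chemokine probes marked by lines whose heights only separate the labels. Ccl3, Ccl4 and Xcl1 lie in the right tail at 1.78 to 1.99 and Ccl5 in the left tail at -1.66.

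The receptors these ligands act on lay near 0 for the most part, and their arrays differed by a median of 0.270 in size, against 0.235 over all genes. Of 12 listed genes 11 were measured. Both arrays were positive for 6 of them and negative for 2 (29.6% and 33.6% of all genes), with a median of 0.195 against -0.02 over all genes. None was at least 2-fold on both arrays, against 0.954% of all genes, and 0 passed limma's test. Ccr1, which binds CCL3, CCL5 and CCL9, read 0.01 and -0.19 on arrays 1 and 2, and Ccr3, another CCL5 receptor, 0.43 and 0.16. Ccr8, the receptor of CCL1, read 0.14 and 0.30. Xcr1, the receptor of XCL1, read -0.42 and -0.16. The arrays thus differed by at most 0.27 for these receptors, while 4 of their ligands differed by over 1.5; this contrast was not tested.

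Receptors of osteopontin were measured although osteopontin was not. Cd44 had 2 probes that disagreed in sign, one reading 0.31 and 0.18 and the other -0.29 and -0.84. The integrin chain gene Itgav had 3 probes, at -0.19 and 0.09, at -0.39 and -1.27 and at -0.13 and -1.10, so its level is uncertain. Its partner chains gave 0.20 and 0.19 for Itgb3, 1.06 and 0.58 for Itgb5 and -0.53 and 0.06 for Itgb1. The integrin chain gene Itga4 read 0.03 and 0.47, and Itga9 read 0.28 and 0.14. With the probes of each gene averaged, Itgb5 was the farthest from 0 of the 11 genes. It was positive on both arrays with a mean of 0.820 ± 0.34 (SD, n = 2). The Itgav probe at -0.39 and -1.27 alone had a mean of -0.83.

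**Figure D4:**
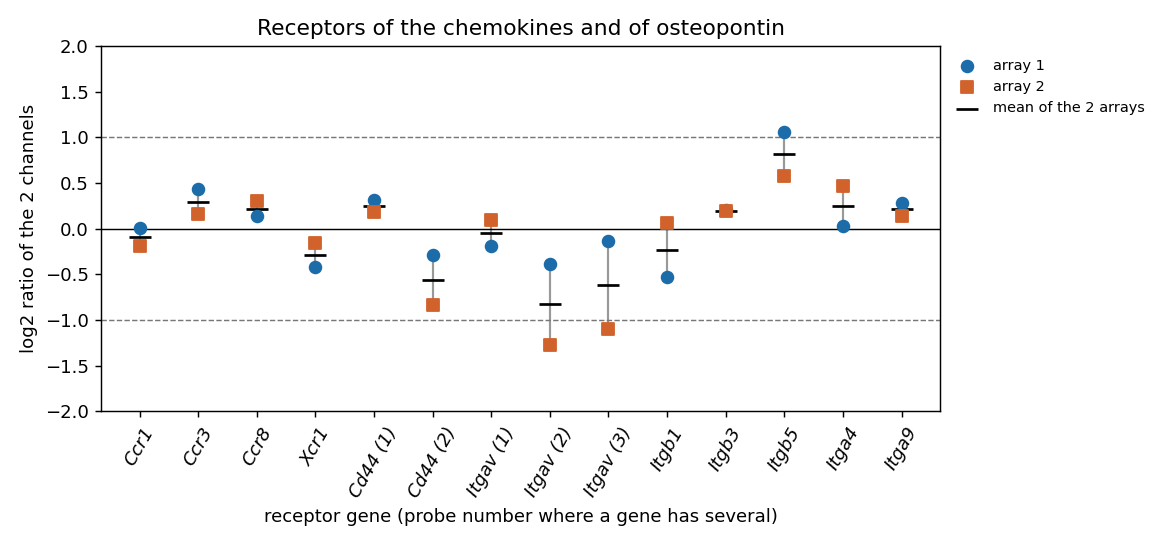
Log2 ratio (vertical axis) of each receptor probe on array 1 (circles) and array 2 (squares), with a bar at the mean and dashed lines at a 2-fold ratio. The squares of 2 of the 3 Itgav probes lie below -1, at -1.27 and -1.10, and of the circles only that of Itgb5 lies past a dashed line, at 1.06.

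Other chemokines, most of them products of stromal, epithelial or myeloid cells, lay near 0. Both arrays were positive for 9 and negative for 11 of the 29 genes measured (29.6% and 33.6% of all genes). The median was -0.055, and 0 were at least 2-fold on both arrays, against 0.954% of all genes. Arrays differed by at least 1 for 3 of the 29 (Ccl11, Cx3cl1 and Pf4), or 10.3%, against 2.80% of all genes and 4 of the 6 T cell chemokines; the difference between these shares was not tested. The platelet chemokine gene Pf4 had the lowest mean, with -0.75 and -2.16 on the arrays. For the other chemokine receptors the median was 0.345 over 16 genes, and both arrays were positive for 10 and negative for 2. Ccr7, which guides T cells to lymph nodes, was the only one at least 2-fold on both arrays, with 1.28 and 2.48, a mean of 1.88 ± 0.85 (SD, n = 2) and a limma adjusted p of 0.171. Arrays differed by at least 1 for 5 of these 16 receptors, namely Ccr6, Ccr7, Cxcr4 (-0.19 and 0.92), Cxcr3 (-0.12 and 1.09) and Cxcr6 (-0.68 and 0.60), of which the last 3 turned in sign between arrays as Ccl5 did.

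Genes of signalling below chemokine receptors and of cell movement had a median of -0.082 over 20 genes. Both arrays were positive for 4 and negative for 9 (29.6% and 33.6% of all genes). At least 2-fold on both arrays were Pik3cg, the phosphoinositide 3-kinase subunit activated by G proteins, with -2.04 and -2.47, and Rgs1, which shortens G protein signals, with -1.26 and -2.93. Both were on the negative side, with limma adjusted p of 0.162 and 0.186. Of all genes, 0.954% were at least 2-fold on both arrays. Rgs1 is also the one gene of this list whose arrays differed by at least 1, or 5%, against 2.80% of all genes. Like Ccl3 and Ccl4 it was the lower on array 2.

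Transcription factors known to act on chemokine genes had a median of -0.022 over 24 genes. Both arrays were positive for 6 and negative for 8 (29.6% and 33.6% of all genes). They differed by at least 1 for Jun, Klf13 and Irf4, or 12.5%, against 2.80% of all genes. At least 2-fold on both arrays (0.954% of all genes) was only Eomes, a T-box factor of effector and memory CD8+ cells. It read -1.86 and -2.46. Its relative Tbx21, the gene of T-bet, read 0.04 and 0.72. Klf13, a Kruppel-like factor known for activating Ccl5 late after T cell activation, read 0.54 and 1.66, with a mean of 1.10 ± 0.79 (SD, n = 2) and a limma adjusted p of 0.250. Like Ccl5 it was the higher on array 2, but unlike Ccl5 it was positive on both arrays. For Runx3, a factor of the CD8 lineage, the probes read 0.10 and 0.22 for 1 and -0.40 and -0.04 for the other.

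Products secreted or stored along with the chemokines lay mostly on the negative side or near 0. Gzmb, the gene of the cytotoxic protease granzyme B, read -2.41 and -2.75, Gzma -2.16 and -2.53 and Ifng, the gene of interferon gamma, -1.41 and -2.12. These 3 of 11 measured genes were at least 2-fold on both arrays, all on the negative side, with a limma adjusted p of 0.162 each. The perforin gene Prf1 had probes that disagreed, one at -1.04 and -1.47, at least 2-fold on both arrays (limma adjusted p of 0.162), and the other at 0.05 and 0.09, so its average did not reach 2-fold. Srgn, the gene of serglycin, the proteoglycan that holds basic proteins in secretory granules, read -0.29 and -0.31. The median of this list was -0.275, both arrays being negative for 6 genes and positive for 0 (33.6% and 29.6% of all genes). The arrays differed by at least 1 for 0 of the 11 genes, against 2.80% of all genes. The median size of their difference was 0.340, against 0.235 over all genes. In all 6 lists of related genes together, 7 of 111 measured genes were at least 2-fold on both arrays, or 6.31%, against 0.954% of all genes. These lists were drawn up with earlier results of these arrays known, so that share is a description.

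Markers of cell types that could also make these chemokines were set beside them. Macrophage and monocyte markers, of which 11 of 13 were measured, had a median of 0.005. Both arrays were positive for 2 of these genes and negative for 4 (29.6% and 33.6% of all genes). These markers ranged from -0.92 to 0.52 on array 1 and from -0.37 to 1.43 on array 2. Of them 0 were at least 2-fold on both, against 0.954% of all genes. Natural killer cell markers had a median of 0.032 over 6 of 7 genes and reached from -0.77 to 0.86 and from -1.88 to 0.63, the lowest on each array being Klrb1c (-0.77 and -1.88). Dendritic cell markers had a median of -0.060 over 7 of 9 genes, both arrays being positive for 3 and negative for 3. They reached from -0.71 to 1.28 on array 1 and from -0.23 to 2.48 on array 2. By mean, Ccr7 and Cd83 (0.16 and 2.06) were their highest and Itgax (-0.71 and -0.03) their lowest. B cell markers (9 of 10) had a median of 0.105, with single-array medians of 0.01 and 0.32, and reached from -0.18 to 0.67 on array 1 and from -0.06 to 1.62 on array 2. The B cell receptor chain gene Cd79b (0.67 and 1.62) was their highest, followed by Cd79a (0.31 and 1.06). Medians were, for CD4 T cell markers (4 of 4), 0.118 and, for neutrophil and mast cell markers (7 of 8), 0.025. CD8 T cell markers, all 7 measured, had a median of 0.275 and reached from -0.36 to 0.37 on array 1 and from 0.06 to 0.96 on array 2, array 2 being the higher for 6 of the 7. Ratios do not show whether a marker was present, only whether it differed between the stages. The part of these markers in the chemokine values was not tested.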

How the data were processed

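The deposited table holds 1 signed log ratio per probe and array, taken as log2, and the authors' scanner, normalization and filters are not stated in any label or header; per the labels, each array had 2 channels of total RNA. Of 21919 probes, 21427 had both values, and 15653 of these had 1 gene symbol in the platform's annotation table. limma 3.58.1 in R 4.3.3 fitted each probe's mean of the arrays against 0 (two-sided, moderated variance) and adjusted by Benjamini-Hochberg over all 21427, with a threshold of 0.05. The residual degrees of freedom were 1 per probe, with 3.43 from the prior. A size rule stood beside it: both arrays on one side and at least 2-fold. Values of a gene with several probes were averaged for lists. The mean estimate and the size rule were tested on simulated data, where no limit was set for limma's calls. The text names every probe of the chemokines, their receptors, genes of the other lists at least 2-fold on both arrays, and Eomes, Tbx21, Klf13, Runx3, Srgn, Ifng and Gzmb; other genes were named after their values were seen. The rule also asked for the genes nearest to each chemokine probe at least 2-fold on both arrays, and there was no such probe. Members and lists were chosen with earlier results of these data known. Promoters came from a RefSeq table of GRCm38.p6. Alternatives were median centring, quantile normalization, natural logs, single-value probes kept, 1 value per gene, other spread models, other folds and leaving out each array.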

Additional observations from a re-analysis of the deposited data

How the results depend on the processing

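Each log ratio already pairs the stages within its array, and no further pairing was possible because the series has a single group of arrays. The count of 0 chemokines at least 2-fold on both arrays was the same under median centring, quantile normalization, natural logs, single-value probes kept, 1 value per gene and folds of 1.5 and 3; on single arrays it was 1 to 3. limma called 0 chemokines in every fit run, and 0 probes except without moderation, where 241 passed. Without moderation, a probe with the same value other than 0 on both arrays has no spread and passes by construction. Cxcl12 (0.04 on both arrays) is such a probe, so that count does not measure change. Probes at least 2-fold on both arrays numbered 183, against 577 read as natural logs, 880 at 1.5-fold, 26 at 3-fold and 453 to 1003 on single arrays; for the 6 lists of related genes the count of 7 became 10 to 17 on single arrays. The chemokines' median of -0.36 was -0.375 after median centring, -0.406 after quantile normalization, -0.519 as natural logs and -0.230 to -0.225 on single arrays. Leaving out an array decides the side of single genes: without array 2, Ccl3 stood at 0.01 and Ccl4 at 0.20, and without array 1 at -1.84 and -1.79. Ccl5, Ccl9 and Xcl1 changed sign likewise. The causes were not tested. With 2 arrays and no intensities, what signal over background limits is unknown.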

Other observations

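Other named probes shared the tails of the difference between arrays with the chemokines, a set of 93 probes whose arrays differed by at least 1.5, looked up after the values were seen. On the side of Ccl3 and Ccl4, lower on array 2, stood Spry2 and Dusp4, feedback inhibitors of MAP kinase signalling, with -0.03 and -2.34 and with -0.34 and -2.33 on arrays 1 and 2. The stress-induced transcription factor gene Atf3 read -0.06 and -1.77, the closest pair of values to those of Ccl3. The granzyme genes Gzmc (-1.49 and -3.66) and Gzmd (-0.89 and -2.72) and Klrg1, a receptor of terminal effector cells, (-0.46 and -2.23) were negative on both arrays but far lower on array 2.

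On the side of Ccl5, higher on array 2, were genes of class II antigen presentation: H2-Eb1 read 0.57 and 2.84, H2-Ab1 0.30 and 2.40 and Cd74, the invariant chain, 0.06 and 2.32. The immediate early genes Jun (-0.52 and 1.52) and Dusp1 (-1.30 and 0.57) turned in sign between arrays as Ccl5 did, while Atf3, of the same stress-induced kind, lay in the opposite tail. The B cell markers Cd79b (0.67 and 1.62) and Cd79a (0.31 and 1.06) were also higher on array 2, though by less than 1.5. Pax5 (0.21 and -0.06) and Ms4a1 (0.11 and 0.08) were lower on array 2. Over the 9 measured B cell markers the medians were 0.01 on array 1 and 0.32 on array 2. The part of B cell markers in the class II values was not tested. The named probes nearest to Ccl5 by their pair of values were Psg16 (-0.49 and 1.18) and Txnip, a regulator of glucose uptake (-0.52 and 1.17). The nearest to Xcl1 were Tex36 (1.32 and -0.34) and Dst (1.26 and -0.49).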
